A study of Mus musculus with 2 samples.

Results

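The Mir106b and Mir106a clusters are the paralogues of the Mir17 cluster, a group of microRNA genes known for promoting proliferation. The Mir106b cluster holds Mir106b, Mir93 and Mir25, and the Mir106a cluster holds Mir106a, Mir18b, Mir20b, Mir19b-2, Mir92-2 and Mir363. These 9 genes were taken by name, through their Ensembl identifiers, from the 1973 microRNA genes of the deposited tables, and all 9 had a row. The tables come from microRNA sequencing of whole kidneys of B6NCrl mouse embryos at embryonic day 16.5, with both sexes pooled and animals recorded as healthy, with no treatment or engineered allele named. There was 1 group with 2 libraries, biological replicates 1 and 2. Replicate 2 was pooled from 41 embryos, and no source used here gives the pool size of replicate 1. Both carry the same donor record, so the spread between them may be partly technical.

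A microRNA is cut from a hairpin in a longer transcript, and the mature strand guides silencing of messenger RNAs through its seed, bases 2 to 8. Clustered hairpins can be released from 1 primary transcript, and microRNAs with the same seed share many targets. The Mir106b cluster lies inside Mcm7, which encodes a subunit of the replicative helicase and is induced by E2F factors as cells enter the cycle. Its products are known to repress the cell cycle inhibitor p21 and the pro-apoptotic protein Bim. The X-linked Mir106a cluster was known first as a retroviral integration site in mouse leukaemia. Mice lacking either paralogous cluster alone develop without obvious defects, whereas the Mir17 cluster is required in the embryo, also in nephron progenitors.

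On GRCm38 (mm10) the Mir106b cluster spans 498 bp of chromosome 5, from 138165321 to 138165818 on the minus strand. All 3 hairpins lie in intron 13 of the principal Mcm7 transcript, and that intron is 748 bp long. In the direction of transcription come Mir106b (138165737 to 138165818), Mir93 (138165523 to 138165610) and Mir25 (138165321 to 138165404). The Mir106a cluster spans 875 bp of the X chromosome, from 52741693 to 52742567, also on the minus strand. Its order is Mir106a (52742503 to 52742567), Mir18b (52742331 to 52742413), Mir20b (52742113 to 52742192), Mir19b-2 (52741983 to 52742066), Mir92-2 (52741838 to 52741928) and Mir363 (52741693 to 52741767). Of these, Mir106a overlaps an exon of the non-coding gene Kis2 by 5 bp, and the other five overlap no exon of Kis2.

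The mature sequences are shown because the clusters are compared by seed. The RefSeq table for GRCm38.p6 holds all 9 genes with 17 mature arms, and 1 arm of each gene carries 1 of 4 seeds. The seed is in capitals in each sequence, written 5′ to 3′. In the miR-17 seed group, whose founders are Mir17 and Mir20a, 4 members share AAAGUGC, and miR-17-5p is shown for comparison.
miR-17-5p: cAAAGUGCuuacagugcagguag
miR-106b-5p: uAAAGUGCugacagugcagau
miR-93-5p: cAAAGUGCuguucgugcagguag
miR-106a-5p: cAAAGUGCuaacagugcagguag
miR-20b-5p: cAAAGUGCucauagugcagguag
Against miR-17-5p, counting from 1 at the 5′ end and giving the base of miR-17-5p first, miR-106a-5p differs by U10A alone. The arm miR-20b-5p differs by U10C and C12U, miR-106b-5p by C1U, U10G and G20A over its 21 bases, and miR-93-5p by U10G, A11U, C12U and A13C. The differences inside these arms thus lie outside the seed, at position 1 or from position 10 on.

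In the miR-25 seed group 3 members share AUUGCAC. Mir25 is the only one of them in the Mir106b cluster.
miR-25-3p: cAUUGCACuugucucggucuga
miR-92a-3p (Mir92-2 and Mir92-1): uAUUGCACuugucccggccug
miR-363-3p: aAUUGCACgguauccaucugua
The arm miR-25-3p differs from miR-92a-3p by U1C, C14U and C18U. Beyond the seed miR-363-3p is the most distant, with 11 of 21 compared bases different from miR-92a-3p. The last 2 members carry seeds that the Mir106b cluster lacks.
miR-18b-5p (Mir18b): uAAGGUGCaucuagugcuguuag
miR-19b-3p (Mir19b-2 and Mir19b-1): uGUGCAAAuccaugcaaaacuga
Among 2238 microRNA genes searched, miR-92a-3p and miR-19b-3p occur whole in a second gene, in Mir92-1 and Mir19b-1 of the Mir17 cluster. The base after miR-92a-3p is A in the Mir92-2 hairpin and U in the Mir92-1 hairpin, and after miR-19b-3p it is U in Mir19b-2 and C in Mir19b-1. The tables count reads with several mapping places apart from the gene rows, so reads of these arms that fit both copies may be missing from Mir92-2, Mir19b-2 and their copies. How such reads were handled is not stated, and the number missing was not measured. The other 7 members have no arm with a whole copy in another of the genes searched, and miR-106a-5p is 1 mismatch away from Mir17. Copies outside microRNA genes were not looked for.

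Sense reads on microRNA genes numbered 5317669 and 7128703 in replicates 1 and 2, so that 3 reads, the upper limit that a count of 0 allows, equal 0.564 and 0.421 counts per 1000000 of these reads (CPM). Reads mapping to several places made up 28.0% and 25.3% of all reads. All 8 kidney marker microRNAs listed were detected, that is, at or above 1 CPM in each library, and summed to 312217 and 292722 CPM. Erythroid markers (2 of 2 detected) summed to 303 and 422 CPM, leukocyte markers (3 of 3) to 566 and 664 CPM, striated muscle markers (2 of 2) to 284 and 311 CPM and the liver marker Mir122 to 210.1 and 171 CPM. Neuronal markers (1 of 4 detected, 2 at 0) summed to 118 and 92.3 CPM, and pluripotent markers (4 of 5 detected) summed to 14.7 and 24.3 CPM. These lists were chosen with earlier results of these data known, so the detection of their genes is no independent check of the tissue. The part of these other cell types in the levels below was not tested.

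The Mir106b cluster was the more abundant by far, led by its miR-17 seed members. Its 3 genes summed to 15683 CPM (exact Clopper-Pearson 95% interval 15577 to 15789) in replicate 1 and 16895 CPM (16801 to 16990) in replicate 2, a mean of 16289 ± 857 CPM (SD, n = 2) or 1.63% of the microRNA reads. The Mir106a cluster summed to 901 CPM (876 to 927) and 963 CPM (940 to 986), a mean of 932 ± 43.6 CPM (SD, n = 2) or 0.0932%. The ranges of the clusters did not overlap, and within each library the Mir106b cluster was 17.4-fold and 17.6-fold above. Intervals here cover counting error only, and in whole kidney fewer cells expressing a gene and less RNA per cell cannot be told apart. All 9 members were detected, as were 387 genes in all. The median detected gene stood at 64.2 CPM, and 7 of the 9 members were above it.

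**Figure D1:**
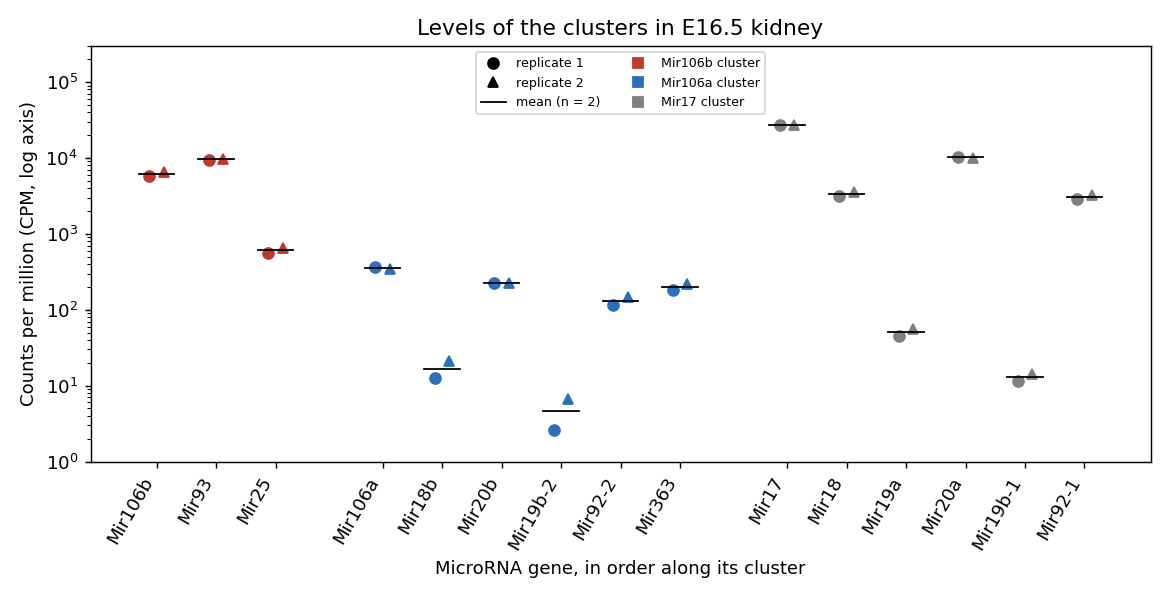
Level of each gene in replicate 1 (circles) and replicate 2 (triangles) in CPM on a log axis, with the mean as a bar, for the Mir106b, Mir106a and Mir17 clusters in the order of their hairpins. Mir93 and Mir106b lie at 5733 CPM or more in each library while no gene of the Mir106a cluster exceeds 362 CPM, and Mir18b and Mir19b-2 are the lowest genes of their cluster.

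Mir93 led the members. It had 9386 CPM in replicate 1 and 9763 in replicate 2, from 49912 and 69594 reads, and was ranked 22 of all genes in both libraries. Mir106b, the first hairpin of the cluster, followed with 5733 and 6478 CPM and ranks 28 and 26. The values of these neighbours did not overlap, and Mir93 stood 1.64-fold and 1.51-fold above Mir106b. A pair of genes at 100 CPM or more had to lie 1.34-fold apart to exceed the replicate spread, which is 1.96 times the pooled SD of 0.22 (log2) over 181 such genes. Mir93 and Mir106b thus differed by more than the spread, which covers differences between the libraries only. No p is given for such pairs, since 0.5 is the smallest p that an exact sign-flip test of 2 libraries can reach.

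Mir25, the third hairpin in the same intron, was far lower. It had 564 and 655 CPM, from 2997 and 4669 reads, and ranked 98 and 96. Mir106b exceeded it 10.2-fold and 9.89-fold and Mir93 exceeded it 16.7-fold and 14.9-fold, both beyond the replicate spread. Mir25 therefore held 3.59% and 3.88% of the reads of the Mir106b cluster, against 59.9% and 57.8% for Mir93 and 36.6% and 38.3% for Mir106b. None of the arms of these 3 genes has a whole copy in another microRNA gene, and a gene row sums both arms of a hairpin.

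In the Mir106a cluster the miR-17 seed members again had the highest counts, but by little. Mir106a had 362 and 346 CPM and Mir20b 224 and 227 CPM, a ratio of 1.62 and 1.53. Mir363, the last hairpin, had 185 and 216 CPM, and Mir92-2 had 115 and 146 CPM. The step from Mir20b to Mir363 was 1.21-fold and 1.05-fold, within the replicate spread, although the values did not overlap. Mir363 stood 1.61-fold and 1.48-fold above Mir92-2, beyond the spread. Reads may be missing from Mir92-2, so its place in this order holds for the counted reads only. The level of Mir106a may include reads of Mir17, whose arm is 1 mismatch away, which was not tested.

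The remaining members of the Mir106a cluster were rare. Mir18b, a miR-18 homologue, had 12.6 CPM (exact 95% interval 9.76 to 16.0) from 67 reads and 20.9 CPM (17.7 to 24.5) from 149 reads. Mir19b-2 had 2.63 CPM (1.44 to 4.42) from 14 reads and 6.73 CPM (4.96 to 8.93) from 48 reads. Mir18b lay 4.79-fold and 3.10-fold above Mir19b-2, beyond the 1.77-fold spread of genes at 1 to 10 CPM. The order of the 9 genes by mean level of counted reads was Mir93, Mir106b, Mir25, Mir106a, Mir20b, Mir363, Mir92-2, Mir18b and Mir19b-2. Of its 8 steps only that from Mir20b to Mir363 was within the replicate spread.

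The gap between the clusters differed between the seed groups of genes. For the miR-17 seed, Mir106b and Mir93 together reached 15119 and 16240.3 CPM, against 586 and 573 CPM for Mir106a and Mir20b. That is 25.8-fold in replicate 1 and 28.3-fold in replicate 2, a mean log2 ratio of 4.76 ± 0.10 (SD, n = 2). For the miR-25 seed, Mir25 reached 564 and 655 CPM, against 299.6 and 362 CPM for Mir92-2 and Mir363 together. The ratio was 1.88 and 1.81, a mean log2 ratio of 0.88 ± 0.04 (SD, n = 2). The clusters therefore differed in both groups by more than the 1.34-fold spread set for single genes. That spread covers differences between the libraries only, and CPM is not calibrated between different mature sequences. The seed groups differed from each other by 3.78 and 3.97 on the log2 scale in the libraries, a mean of 3.87 ± 0.14 (SD, n = 2). Without Mir92-2, which may lack reads, Mir25 stood 3.05-fold and 3.03-fold above Mir363, still well under the ratio for the miR-17 seed. Any reads missing from Mir92-2 would lower the ratio for the miR-25 seed.

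The makeup of the clusters restates this contrast from the same sums, so it is no further support for it. Members with the miR-17 seed held 96.4% and 96.1% of the reads of the Mir106b cluster, but 65.1% and 59.5% of those of the Mir106a cluster. Members with the miR-25 seed took 33.2% and 37.6% of the Mir106a cluster, from Mir363 (20.5% and 22.5%) and Mir92-2 (12.8% and 15.1%). A gene row sums both arms, so these shares may include reads of arms with other seeds, to an extent that was not measured. Reads of genes with the miR-17 seed exceeded those of genes with the miR-25 seed 26.8-fold and 24.8-fold in the Mir106b cluster. For the Mir106a cluster the folds were 1.96 and 1.58. In the Mir17 cluster, where Mir92-1 carries the miR-25 seed and may lack reads as well, this ratio was 13.3 and 11.3. Mir18b held 1.40% and 2.17% and Mir19b-2 0.292% and 0.6995% of the reads of the Mir106a cluster.

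**Figure D2:**
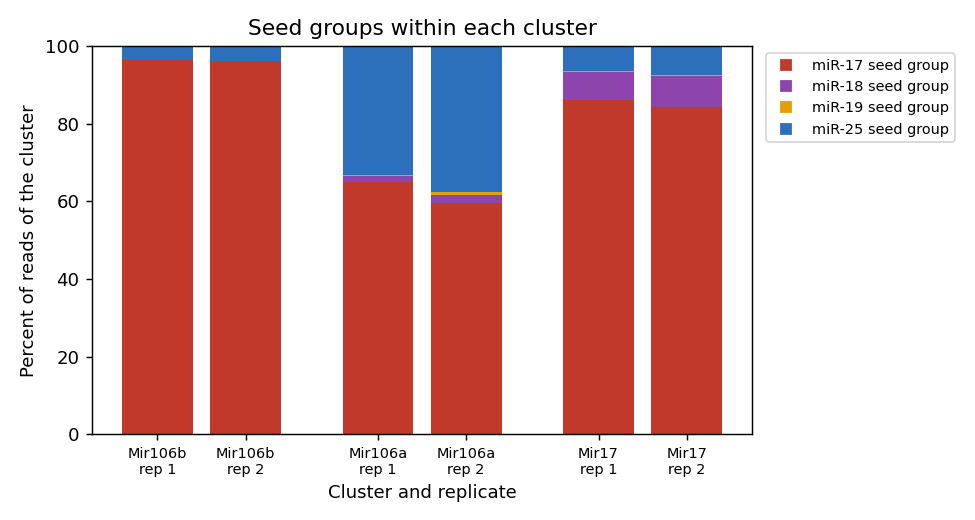
Percent of the reads of each cluster by seed group, with 1 bar per replicate. Genes with the miR-25 seed fill 33.2% and 37.6% of the Mir106a cluster but only 3.59% and 3.88% of the Mir106b cluster.

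Seen across all genes with a seed, the Mir106b cluster contributed mainly to the miR-17 group. The miR-17 seed group summed to 53698 and 53989 CPM. Of it the Mir106b cluster gave 28.2% (exact 95% interval 28.0 to 28.3) and 30.1% (29.9 to 30.2), the Mir106a cluster gave 1.09% (1.05 to 1.13) and 1.06% (1.03 to 1.09), and Mir17 and Mir20a gave the rest. Mir6383, the only other gene with this seed in the RefSeq table, had no read in either library. In the miR-25 seed group, at 4069 and 4737 CPM, Mir25 gave 13.9% (13.4 to 14.3) and 13.8% (13.5 to 14.2). Mir92-2 and Mir363 gave 7.36% (7.02 to 7.72) and 7.64% (7.36 to 7.93), Mir92-1 gave 70.3% and 69.5%, and the unclustered Mir32 and Mir92b gave the rest. Reads of miR-92a-3p that map to several places may be missing from this group, so the share of Mir25 is one of counted reads and may be too high, which the intervals do not cover. Mir367, also with this seed and known from pluripotent cells, had no read.

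For the remaining seeds the counts of the Mir106a cluster were low. Mir19b-2 gave 4.46% (2.46 to 7.37) and 8.68% (6.47 to 11.3) of the miR-19 seed group, which summed to only 59.0 and 77.6 CPM. Reads of miR-19b-3p that map to several places may be missing from this sum, for Mir19b-1 as for Mir19b-2. Mir18b gave 0.397% (0.308 to 0.504) and 0.577% (0.488 to 0.677) of the miR-18 seed group, and Mir18 of the Mir17 cluster gave the remainder. The Mir106b cluster has no member with either seed.

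**Figure D3:**
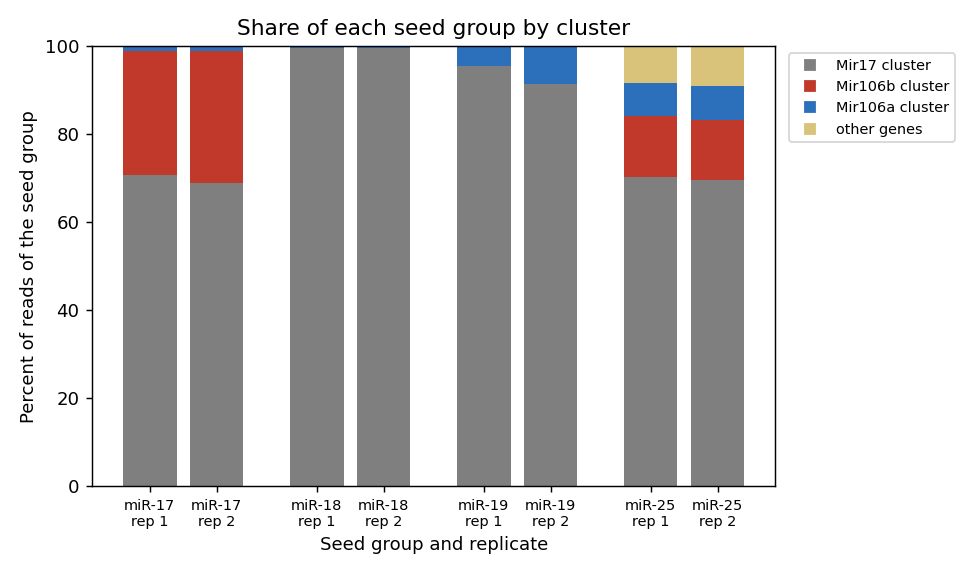
Percent of the reads of each seed group that came from the Mir17, Mir106b and Mir106a clusters and from other genes, with 1 bar per replicate. The Mir106b cluster gives 28.2% and 30.1% of the miR-17 group, 13.9% and 13.8% of the miR-25 group and no reads to the miR-18 and miR-19 groups.

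Position by position, the Mir106a cluster lay below the Mir17 cluster at all 5 matching hairpins. At the first hairpin Mir17 exceeded Mir106a 76.0-fold and 78.3-fold, although their mature arms differ by U10A alone. How many reads of either gene were counted for the other was not measured. Mir20a exceeded Mir20b 46.8-fold and 44.4-fold, and Mir92-1 exceeded Mir92-2 24.9-fold and 22.6-fold. Mir18 exceeded Mir18b 251-fold and 172-fold, and Mir19b-1 exceeded Mir19b-2 4.36-fold and 2.15-fold. The last pair rests on 14 and 48 reads of Mir19b-2. The folds of the Mir92 and Mir19b pairs cover counted reads only, since each pair shares a whole arm, and may differ from the folds over all their reads. The Mir106b cluster lay closer. Mir20a was only 1.12-fold and 1.03-fold above Mir93, within the replicate spread, Mir17 was 4.80-fold and 4.19-fold above Mir106b, and Mir92-1, by its counted reads, was 5.08-fold and 5.02-fold above Mir25. In sum the Mir17 cluster was 2.81-fold and 2.61-fold above the Mir106b cluster.

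The libraries are replicates of 1 group, so a test between them compares these pools and not conditions. CPM was higher in replicate 2 for 8 of the 9 members, Mir106a being the exception, and with TMM scaling, which lowers every log2 ratio by 0.14, for 6 of 9. The median log2 ratio of all 455 genes tested was also above 0, at 0.16 and 0.02. The share of all genes that were higher was not counted, so these counts show no trait of the members. In an exact binomial test on TMM-scaled reads, which covers counting error only, 6 of 9 members passed an adjusted p of 0.05 over all 455 genes tested, against 33.6% of those genes. Of the 6, 4 were higher and 2, Mir93 and Mir106a, lower in replicate 2. Over all genes tested, 72 passed as higher and 81 as lower. On library totals 7 members passed and all 7 were higher. There 193 of the 455 genes passed, 152 of them higher. With TMM scaling, 4 of 7 members at 100 CPM or more passed, against 63.5% of such genes. The members thus passed about as often as other genes of that depth. By size, 2 of 9 members differed by 1.5-fold or more against 24.2% of all genes tested, and 0 of 7 at 100 CPM or more against 3.31%. The 2 were Mir19b-2, at 2.56-fold, and Mir18b, at 1.66-fold. With TMM scaling, on which the test was run, the log2 ratio was 1.21 for Mir19b-2 (exact binomial test, adjusted p = 0.0147) and 0.59 for Mir18b (exact binomial test, adjusted p = 0.0186). With a coefficient of variation of 0.2 between pools allowed in the edgeR exact test, 0 of 9 members and 3 of 455 genes passed. The median log2 ratio of the 9 members was 0.22 on library totals and 0.07 with TMM, against 0.16 and 0.02 for all genes tested.

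Members with the miR-25 seed had higher ratios between the libraries than those with the miR-17 seed, in each cluster that holds both. On library totals the log2 ratios of replicate 2 to replicate 1 were 0.22 for Mir25 (exact 95% counting interval 0.15 to 0.28), 0.23 for Mir363 (0.11 to 0.34) and 0.34 for Mir92-2 (0.20 to 0.49). They were 0.18 for Mir106b (0.16 to 0.20), 0.06 for Mir93 (0.04 to 0.07), 0.02 for Mir20b (-0.09 to 0.13) and -0.06 for Mir106a (-0.15 to 0.02). With the Mir17 cluster added, the 6 genes with the miR-17 seed ran from -0.06 to 0.18. The 4 with the miR-25 seed ran from 0.20 to 0.34, without overlap. TMM scaling shifts all log2 ratios alike, so it could not change this. The nearest values were those of Mir106b and Mir92-1 (0.20, interval 0.17 to 0.23). The interval of Mir106b overlapped those of Mir92-1 and Mir25, so these values are not separated at this depth. Mir92-1 and Mir92-2 share a whole arm, and reads mapping to several places were 28.0% and 25.3% of all reads in replicates 1 and 2. Whether this moved their ratios was not tested. The unclustered Mir32 (0.22) and Mir92b (0.44) also lay above the miR-17 seed genes. So did the cluster genes with the miR-18 seed (2 genes, 0.19 to 0.73) and the miR-19 seed (3 genes, 0.33 to 1.35). All of these but Mir18 lay below 100 CPM. The higher ratios were thus not particular to the miR-25 seed. The median log2 ratio of genes tested at 100 CPM or more was 0.14. Of the 181 genes at 100 CPM or more, 85 lay within the range of the miR-17 seed genes and 47 within that of the clustered miR-25 seed genes, these genes included. This grouping was noticed after the values were seen, and no test of it was made.

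**Figure D4:**
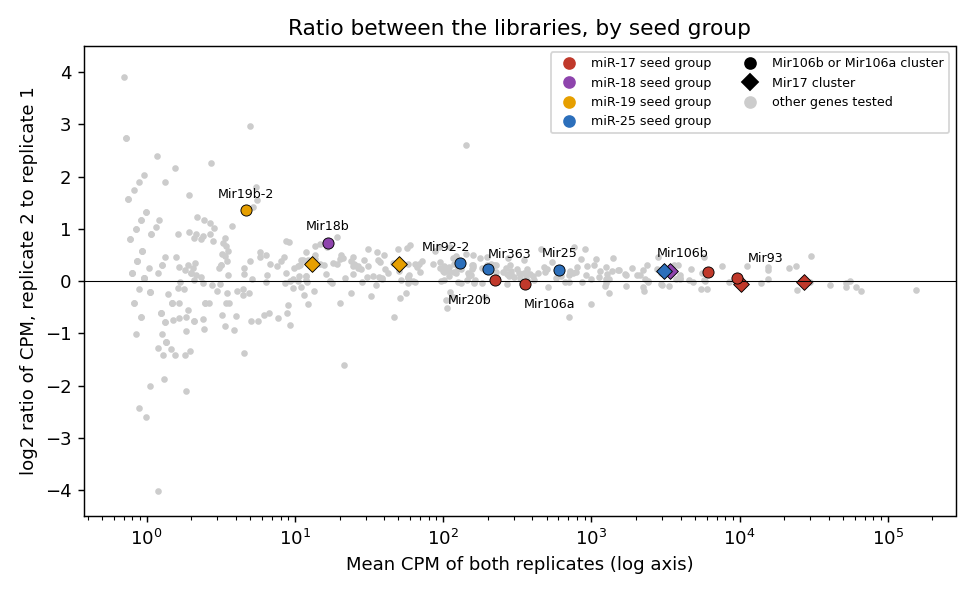
log2 ratio of CPM in replicate 2 to replicate 1 against the mean CPM (log axis) for 455 genes, with the clusters coloured by seed group. The miR-25 seed genes of the clusters lie between 0.20 and 0.34 and the miR-17 seed genes between -0.06 and 0.18, and Mir19b-2 and Mir18b stand highest, in the low range where all genes scatter more.

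To place the members among other genes, for each member at 100 CPM or more, the genes outside the 3 clusters nearest in log2(CPM + 1) over the 2 libraries were named. Nearest to Mir93 were Mir98 of the let-7 family (8528 and 8398 CPM, distance 0.26) and Mir23a (10090 and 12257 CPM, distance 0.34), the widest gaps among the members so compared. Mir106b sat with Mir151 (distance 0.15) and Mir652 (0.16), and Mir25 with Mir188 (0.10) and Mir195a (0.16). Nearest to Mir106a were Mir339 and Mir134 (both 0.09), and nearest to Mir20b were Mir204 (0.03) and Mir155 (0.11). Mir92-2 sat with Mir152 and Mir135b (both 0.08). Mir363 sat with Mir224 (0.07) and with Mir32 (0.09), which carries the same seed. Likeness in level over 2 libraries of 1 tissue does not show a shared pattern across conditions.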

How the data were processed

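MicroRNA reads (RNA under 30 nucleotides per the labels) were measured in 2 libraries of kidney at embryonic day 16.5. The authors deposited raw counts of reads per microRNA gene on mm10 with genome annotation M4, per the accompanying text files, in 3 columns. The first equals the sum of the other 2, taken as sense and opposite-strand reads. No source used here names the aligner or the counter. Sense reads were used, and the 9 members had 4 opposite-strand reads in all. Rows that name no gene held 55.2% and 51.5% of reads and were left out. CPM used the summed sense reads of all gene rows, without division by gene length, and is not calibrated between different mature sequences.

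Symbols and positions came from GENCODE M21 (1894 of 1973 rows matched) and mature sequences from RefSeq (GRCm38.p6). Between libraries, genes with at least 10 reads summed were compared by a two-sided exact conditional binomial test on edgeR 4.0.16 TMM-scaled totals, with Benjamini-Hochberg adjustment across all genes. It was tried on simulated counts that held counting error only, on library totals. That trial cannot show how the test handles spread between pools. The quasi-likelihood test could not be fitted with 1 library per side. DESeq2 1.42.0 gave alternative size factors. Named genes are the 9 members, the Mir17 cluster, all genes with a seed of theirs, and the nearest 2 genes in level. Members and lists were chosen with earlier results of these data known.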

Additional observations from a re-analysis of the deposited data

How the results depend on the processing

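The ratios between the clusters kept their direction under the alternatives run. Adding opposite-strand reads or 1 CPM changed the sums little, so these settings could hardly have reversed a ratio. With all reads of the tables as the denominator, rows that name no gene included, the Mir106b cluster fell to 7605 CPM and the Mir106a cluster to 435 CPM, since more reads are divided by. Using only members without a whole arm copy, the ratio of the clusters rose from 4.13 to 4.35 (log2) and that within the miR-25 seed group from 0.88 to 1.60, since Mir92-2 and Mir19b-2 are dropped. In the edgeR exact test with a coefficient of variation of 0.2, 0 members passed instead of 6, and 3 of 455 genes did instead of 153. With totals, 7 members and 193 of 455 genes passed.

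Without 1 replicate at a time, the Mir106b cluster ranged from 15683 to 16895 CPM and the Mir106a cluster from 901 to 963 CPM. Their log2 ratio ranged from 4.12 to 4.13, in the miR-17 seed group from 4.69 to 4.82 and in the miR-25 seed group from 0.86 to 0.91. Mir19b-2 ranged from 2.63 to 6.73 CPM. With n = 2 such values always lie within 1 SD of the mean, so they do not show stability. Of 18 alternatives of strand or scaling for single members, 17 moved the level by less than the replicate SD, and the exception was Mir20b on either strand (220.5 CPM). TMM raised replicate 1 and lowered replicate 2, and the members had few opposite-strand reads. These settings could thus hardly move a mean, so they do not show stability either. No paired analysis was possible because the series holds 1 group. DESeq2 could not be fitted with 1 library per side and was not run as a test. Depth limits Mir19b-2 and Mir18b most, and reads that map to several places may limit Mir19b-2 and Mir92-2.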
